A study of Mus musculus with 9 samples.

Results

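The genes described here are 9 transcriptional regulators and outputs of the circadian clock in mouse liver. They are the PAR-bZIP activators Dbp, Tef and Hlf, the repressor Nfil3, the E-box repressors Ciart, Bhlhe40 and Bhlhe41, the nuclear receptor Rora and the ubiquitin protease Usp2. They were taken by symbol from a table of gene counts, in which each of the 9 had 1 row among 18954 rows. All 9 passed the filter on low counts and were tested among 14004 genes. The smallest count of any of them in any liver was 30, for Bhlhe41.

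RNA was read from 9 samples of whole liver, called livers here, with ribosomal RNA removed and strand kept. The 5 Alb-cre livers came from mice labelled GSDMD-NTki/wt with Alb-creki/wt. The 4 control livers came from mice labelled GSDMD-NTki/wt, with no Cre named in their titles. All were at day 42. GSDMD-NT is the pore-forming N-terminal part of gasdermin D, and every mouse, controls included, carried 1 knock-in allele for it. Alb-cre expresses Cre recombinase from the albumin promoter, which is active in hepatocytes. The series describes induction of cell death by doxycycline, and a test of obeticholic acid. The titles of the Alb-cre livers carry the word treatment and those of the control livers the word control, but the sample labels name no agent. Livers with Alb-cre and no GSDMD-NT allele were not analysed here, so effects of Cre and of GSDMD-NT cannot be told apart. An effect of any agent given to the Alb-cre livers only could not be told from these either. The labels give no age, litter or hour of collection. They do not say that the livers came from separate animals, so the p-values measure only the spread between these samples, which may be technical. Totals were 13361093 to 16823506 counts per liver. Gsdmd had 41.0 ± 7.16 CPM in Alb-cre livers and 38.8 ± 7.17 CPM in control livers (SD, n = 5 and 4). The sources do not say whether reads of the inserted sequence count under this gene, so it checks no label. Hepatocyte markers summed to 77206 to 89520 CPM in Alb-cre livers and 86845 to 107392 CPM in control livers, 11 of the 12 listed being found. Of these 11, Fgb was called higher and Ttr and Ass1 lower (27.3% called, beside 18.3% of all tested genes). Fgb is also an acute phase gene, so the sum includes its rise (9772 ± 6008 CPM in Alb-cre livers, 4131 ± 498 CPM in control livers). Of 8 tested markers each, 1 was called higher and 0 lower for Kupffer cells and likewise for sinusoidal endothelium, and 0 were called for stellate cells.

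In the circadian clock, CLOCK and BMAL1 (gene Arntl) bind E-boxes and switch on their own repressors, among them the Per, Cry and Nr1d genes, and a layer of output regulators. Dbp, Tef and Hlf belong to that layer and activate genes through D-boxes, where Nfil3 represses. In mouse liver Dbp swings more steeply over the day than Tef or Hlf, and Nfil3 peaks when Dbp is low. Ciart, Bhlhe40 and Bhlhe41 hold back CLOCK and BMAL1 at E-boxes. ROR alpha, the product of Rora, activates at ROR elements, where the products of Nr1d1 and Nr1d2 repress, and Arntl and Nfil3 are among the genes with such elements. With 1 unrecorded time point per liver, a change of level and a shift of phase cannot be told apart.

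The start-site windows of 4 of these genes are shown. Those of Nfil3, Ciart and Bhlhe41 carry motifs through which the clock is known to reach its outputs, and Dbp is the gene that fell most. The Tef windows also held a motif match and are not shown. Each window runs from 250 bases before to 50 bases after the start of the gene, in RefSeq's mouse build GRCm38.p6, and capitals mark motif matches.
Dbp, chr7:45704997-45705296, plus strand: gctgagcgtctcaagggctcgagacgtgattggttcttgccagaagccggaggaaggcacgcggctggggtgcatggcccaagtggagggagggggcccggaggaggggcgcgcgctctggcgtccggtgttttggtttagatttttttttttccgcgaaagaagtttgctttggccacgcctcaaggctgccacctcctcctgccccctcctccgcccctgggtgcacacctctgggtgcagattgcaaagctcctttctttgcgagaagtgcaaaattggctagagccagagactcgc
Nfil3, chr13:52980990-52981289, minus strand: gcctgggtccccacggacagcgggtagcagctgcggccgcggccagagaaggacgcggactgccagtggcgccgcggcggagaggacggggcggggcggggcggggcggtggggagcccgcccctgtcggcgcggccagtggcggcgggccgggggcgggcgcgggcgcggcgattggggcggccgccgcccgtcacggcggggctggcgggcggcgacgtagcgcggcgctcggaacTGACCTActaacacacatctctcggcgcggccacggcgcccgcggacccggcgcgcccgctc
Ciart, chr3:95882179-95882478, minus strand: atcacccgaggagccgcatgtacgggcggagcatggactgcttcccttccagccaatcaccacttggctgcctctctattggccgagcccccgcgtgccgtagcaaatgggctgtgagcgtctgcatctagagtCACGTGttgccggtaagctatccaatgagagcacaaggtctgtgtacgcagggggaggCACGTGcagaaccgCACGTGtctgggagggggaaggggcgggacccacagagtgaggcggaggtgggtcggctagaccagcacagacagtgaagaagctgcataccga
Bhlhe41, chr6:145865371-145865670, minus strand: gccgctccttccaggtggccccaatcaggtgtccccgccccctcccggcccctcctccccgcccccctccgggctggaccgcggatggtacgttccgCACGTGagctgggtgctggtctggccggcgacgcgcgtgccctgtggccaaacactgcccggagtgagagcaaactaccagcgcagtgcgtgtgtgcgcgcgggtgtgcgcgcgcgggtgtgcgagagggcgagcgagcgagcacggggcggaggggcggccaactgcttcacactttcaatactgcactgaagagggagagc

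Windows were held for 8 of the 9 genes, Tef having 2, and Bhlhe40 was not matched. The letters CACGTG, the core E-box, stood 3 times in the Ciart window, at 116, 58 and 44 bases upstream of the start. They stood once in that of Bhlhe41, at 153 bases upstream, and once in each Tef window, at 127 and 138 bases before the start RefSeq gives. Of the 2 Tef windows, 1 held a transcript start of that gene in GENCODE M21 and the other did not, whereas all 7 windows of the other genes held one. In all, 4 of 9 windows, from 3 genes, held CACGTG, against 7.15% of 32851 RefSeq windows of the same length. The ROR element TAGGTCA stood once, reversed, at 12 bases upstream in the Nfil3 window, and 2.61% of all windows held it. The other motifs searched, CACGTT (4.68% of all windows), TTATGTAA (0.938%), TTACGTAA (0.119%) and TGGGTCA (3.98%), were in no window of these genes. Both strands were searched, and no matches overlapped. The windows of Dbp, Hlf, Rora and Usp2 held none of the 6 motifs, which says only that these letters are absent from these windows. Of the 3 genes called lower below, only Bhlhe41 had a match in its window.

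**Figure D1:**
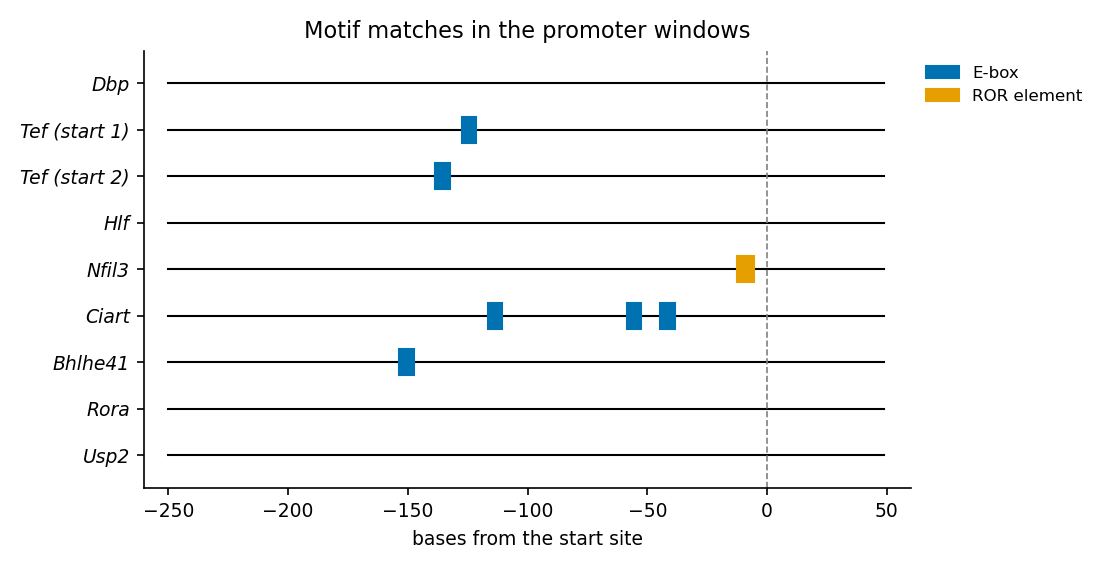
Positions of motif matches in the 9 promoter windows, in bases from the start site (dashed line). Boxes are matches to the E-box CACGTG or the ROR element TAGGTCA, and Ciart, with 3 E-boxes, holds the most.

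Of the 9 genes, Dbp, Bhlhe41 and Rora were called lower in Alb-cre livers and none was called higher. Dbp was 3.98-fold and Bhlhe41 3.44-fold lower, and Rora 1.37-fold lower. The other 6 did not pass the test, and of these Tef came nearest. Levels are CPM, counts scaled to library size with TMM factors. Fold changes are on the log2 scale, Alb-cre over control, with their SE, from the quasi-likelihood fit of edgeR. Genes were called at a Benjamini-Hochberg adjusted p under 0.05 over all 14004 tested genes. In this comparison 18.3% of tested genes were called, 9.25% higher and 9.07% lower, beside 3 of these 9 genes (33.3%), all lower. Their median log2 fold change was -0.37, against 0.01 over all tested genes. In 4 of the 9 the groups did not overlap, Alb-cre livers being lower each time, and this held for 18.5% of tested genes, 9.22% with Alb-cre livers lower and 9.23% with them higher. With 9 genes these shares describe the genes and single out nothing particular to them. The count of 3 lower was between 2 and 4 when 1 liver was left out.

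**Figure D2:**
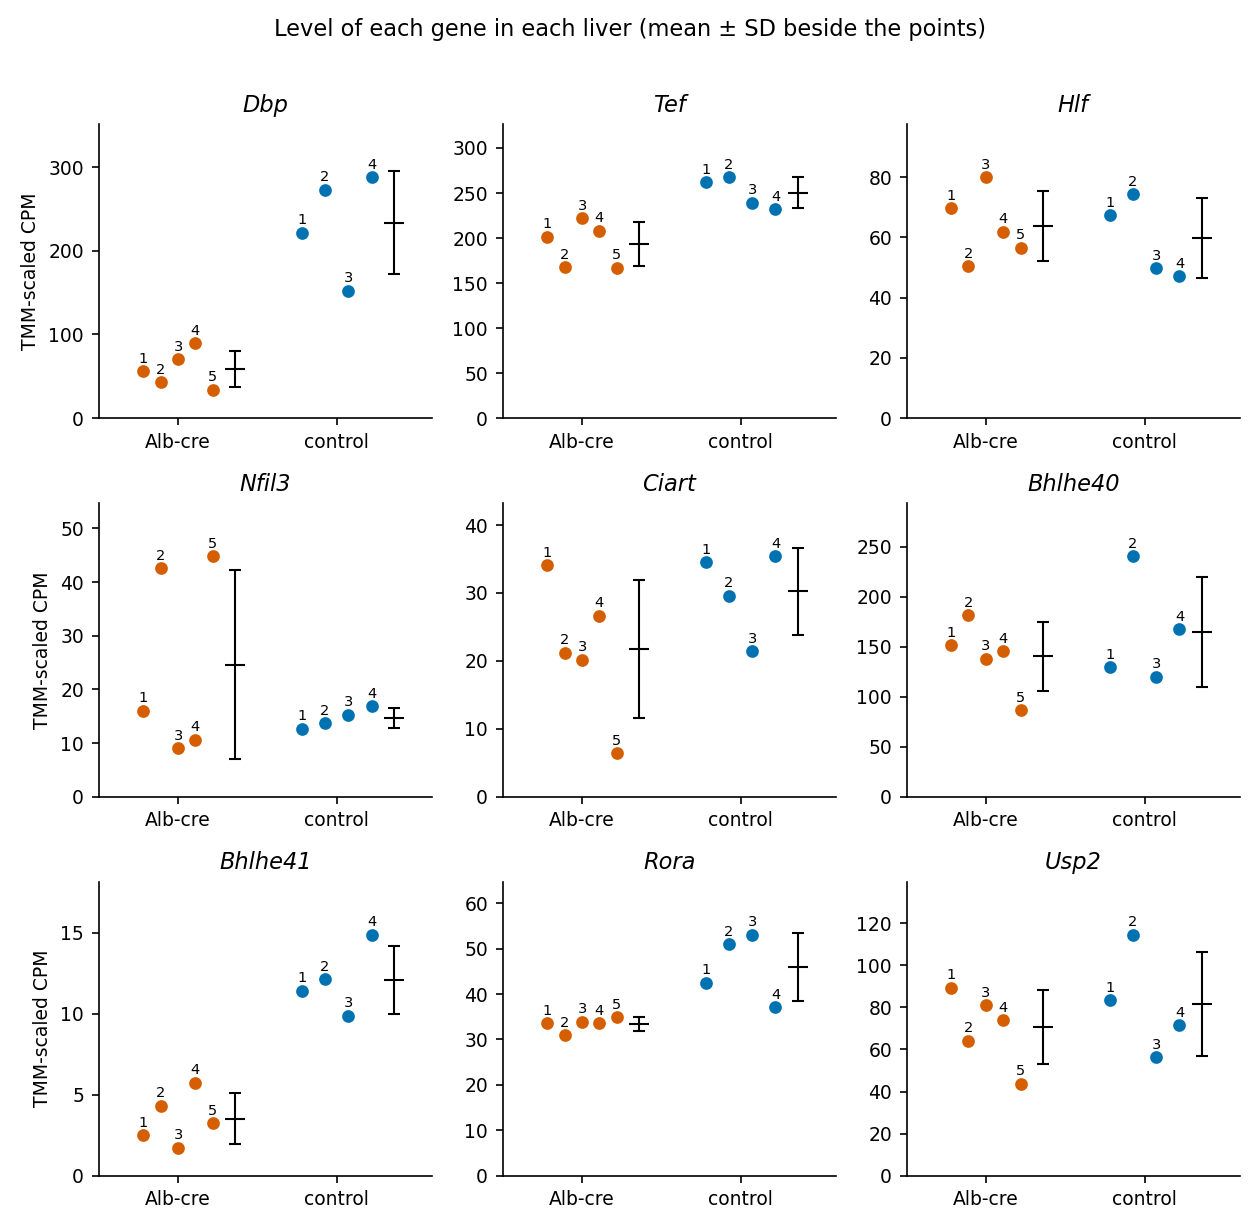
TMM-scaled CPM of each gene in each liver, Alb-cre livers left (orange, 5 livers) and control livers right (blue, 4 livers), numbered by replicate, with the mean and SD beside the points. Every Alb-cre liver lies below every control liver for Dbp, Tef, Bhlhe41 and Rora, and 2 Alb-cre livers stand high for Nfil3.

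Dbp (ENSMUSG00000059824.13), the D-site albumin promoter binding protein, had 56.3, 43.1, 70.5, 89.5 and 34.2 CPM in Alb-cre livers 1 to 5, against 221, 273, 152, 288 CPM in control livers 1 to 4. The highest Alb-cre liver, 4, stayed below the lowest control, 3. The means were 58.7 ± 21.98 CPM in Alb-cre livers and 234 ± 61.2 CPM in control livers (SD, n = 5 and 4). The log2 fold change was -1.99 ± 0.27 (adjusted p = 0.0025, edgeR), with a 95% interval of -2.57 to -1.41. By unadjusted p Dbp was at place 39 among the tested genes. Leaving out any 1 liver gave log2 fold changes of -2.20 to -1.85 (adjusted p = 0.00203 to 0.0118, edgeR). Without both controls 2 and 4, a setting chosen after the data were seen, it was -1.67 (adjusted p = 0.0616, edgeR). Over all alternatives the adjusted p ran from 1.43e-10 (DESeq2) to that value.

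Tef (ENSMUSG00000022389.16), the thyrotroph embryonic factor, had 202, 167, 222, 208 and 167 CPM in Alb-cre livers 1 to 5, against 262, 268, 239 and 232 CPM in control livers 1 to 4. The groups did not overlap, but the nearest livers, Alb-cre 3 and control 4, were close. On the log2 scale the fold change was -0.37 ± 0.12 with a 95% interval of -0.64 to -0.10, and it missed the threshold (adjusted p = 0.0551, edgeR). It passed without Alb-cre 3 (-0.42, adjusted p = 0.0444, edgeR) and in 4 other alternatives, so its call depended on the processing. Over all alternatives its adjusted p ran from 0.0156 to 0.3002.

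Hlf (ENSMUSG00000003949.17), the hepatic leukemia factor and the third PAR-bZIP activator, had 69.8, 50.5, 80.0, 61.9 and 56.7 CPM in Alb-cre livers 1 to 5, against 67.5, 74.3, 49.8 and 47.2 CPM in control livers 1 to 4. The groups overlapped over most of their range. The log2 fold change was 0.10 ± 0.17 (adjusted p = 0.722, edgeR), and its 95% interval was -0.28 to 0.47. It was -0.0021 without control 4 and -0.034 with the length correction, so no direction is given. The interval of Hlf and that of Dbp did not meet.

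The 3 activators therefore differed in how far apart the groups stood. The log2 ratio of Dbp to Tef, each per kilobase of transcript, was -1.03 to 0.04 in Alb-cre livers and 0.61 to 1.57 in control livers. That of Hlf to Tef was -2.11 to -1.83 in Alb-cre livers and -2.66 to -2.21 in control livers. Neither pair of ranges overlapped, and no test was made of the ratios, which join genes chosen with results known.

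**Figure D3:**
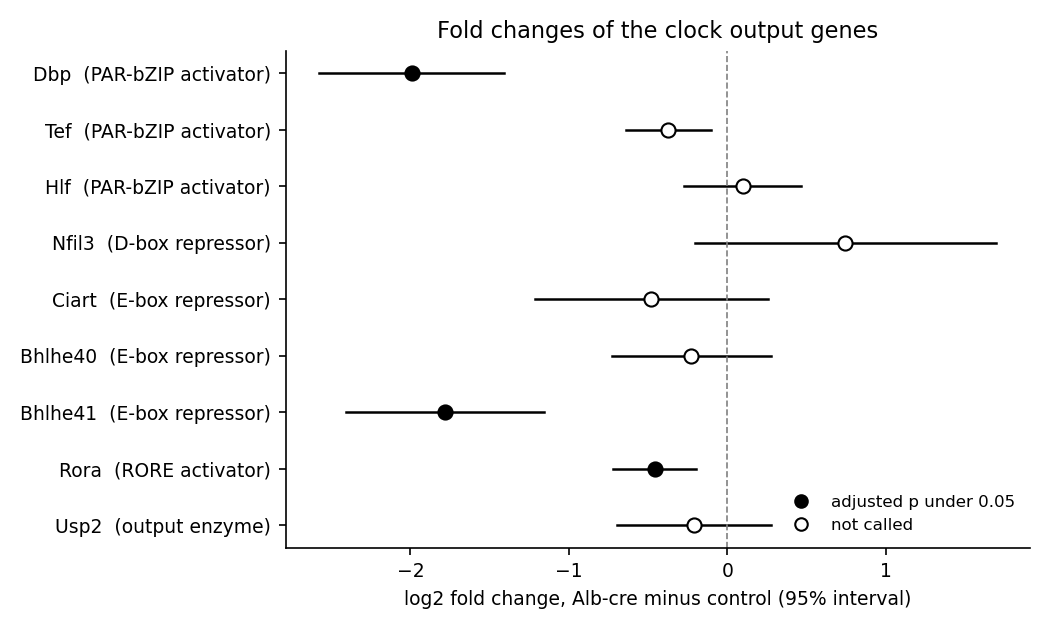
Log2 fold change of each gene, Alb-cre minus control, with its 95% interval from edgeR's quasi-likelihood fit. Filled points passed an adjusted p of 0.05. Dbp at -1.99 and Bhlhe41 at -1.78 lie apart from the other 7, whose estimates run from -0.48 to 0.75.

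Nfil3 (ENSMUSG00000056749.8), also called E4BP4, represses at the D-boxes that Dbp activates. It had 16.1, 42.5, 9.11, 10.6 and 44.8 CPM in Alb-cre livers 1 to 5, against 12.7, 13.7, 15.3 and 16.9 CPM in control livers 1 to 4. Alb-cre 2 and 5 were above every control, Alb-cre 3 and 4 were below every control, and Alb-cre 1 was among them. The means were 24.6 ± 17.6 CPM and 14.7 ± 1.85 CPM in Alb-cre and control livers (SD, n = 5 and 4), and the log2 fold change of 0.75 ± 0.44 did not pass (adjusted p = 0.247, edgeR, 95% interval -0.20 to 1.69). On the log2 scale its SD among Alb-cre livers was larger than that of 99.0% of the 11600 tested genes whose average log2 CPM reached 1. Among control livers it was larger than that of 31.5%.

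The livers high in Nfil3 were the livers lowest in Dbp. Relative to the control mean on the log2 scale, Alb-cre 5 was at -2.71 for Dbp and 1.59 for Nfil3, and Alb-cre 2 at -2.38 and 1.51. Alb-cre 4 was at -1.34 and -0.44, and Alb-cre 3 at -1.68 and -0.65. Dbp was below the controls also in the livers where Nfil3 was, and a link between Dbp and Nfil3 was not tested. The log2 ratio of Dbp to Nfil3, per kilobase of transcript, was 1.95, 0.16, 3.09, 3.21 and -0.25 in Alb-cre livers 1 to 5, against 4.26, 4.46, 3.46 and 4.23 in control livers 1 to 4. Acute phase genes moved as well, with 21 of 26 tested members called higher and 0 lower (80.8% called, beside 18.3% of all tested genes). The median log2 fold change of that list was 1.84. Averaged over that list, Alb-cre livers 1 to 5 stood at 2.08, 3.65, 0.21, 1.40 and 2.62 above the control mean, and control livers 1 to 4 at 0.36, -0.22, -0.06 and -0.08. The livers with the most Nfil3, Alb-cre 2 and 5, were thus also the highest in acute phase genes, whose part in the Nfil3 values was not tested. Dbp was 1.68 below the control mean in Alb-cre 3, where the acute phase genes stood lowest of the Alb-cre livers. A link between Dbp and the acute phase genes was not tested either. The number of higher acute phase genes was 11 without control 2 and 11 without control 4.

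**Figure D4:**
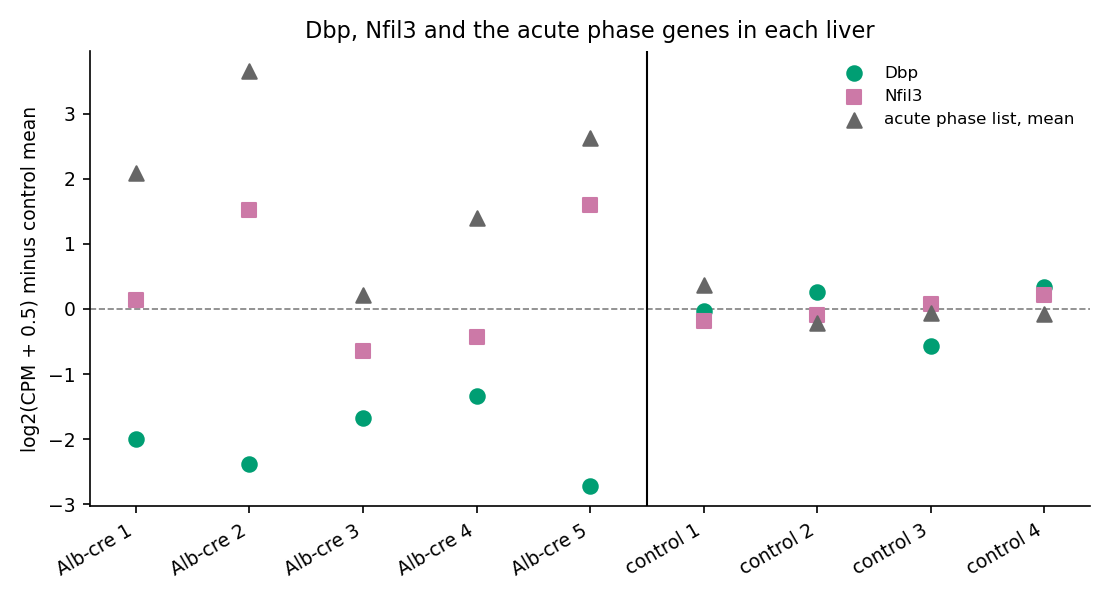
Dbp, Nfil3 and the mean of 26 acute phase genes in each liver, as log2(CPM + 0.5) minus the mean of the 4 control livers, Alb-cre livers left of the line. Dbp lies between -2.71 and -1.34 in the Alb-cre livers, and Nfil3 is at 1.51 and 1.59 in Alb-cre 2 and 5.

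Bhlhe41 (ENSMUSG00000030256.12), or DEC2, is a basic helix-loop-helix repressor at E-boxes. It had 2.48, 4.33, 1.73, 5.74 and 3.26 CPM in Alb-cre livers 1 to 5, against 11.4, 12.1, 9.89 and 14.9 CPM in control livers 1 to 4. Every Alb-cre liver was below every control liver, and the order within the Alb-cre group was not that of Dbp, since Alb-cre 3 was lowest. The means were 3.51 ± 1.58 CPM in Alb-cre livers and 12.1 ± 2.09 CPM in control livers (SD, n = 5 and 4). The log2 fold change was -1.78 ± 0.29 (adjusted p = 0.00451, edgeR), with a 95% interval of -2.41 to -1.16. Leaving out any 1 liver gave -2.04 to -1.60 (adjusted p = 0.00314 to 0.018, edgeR), and leaving out both controls 2 and 4 gave -1.60 (adjusted p = 0.0786, edgeR). The lowest adjusted p of any alternative was 4.04e-07 (DESeq2). Its counts were low, 30 to 101 in Alb-cre livers and 135 to 249 in control livers. Bhlhe41 is also used by some B cells, and the B cell markers fell with it. Of 5 tested B cell markers 4 were lower and 0 higher (80% called, beside 18.3% of all tested genes). The 6 markers found summed to 3.53 to 9.32 CPM in Alb-cre livers and 13.6 to 18.5 CPM in control livers. Cd79b was at 0 in Alb-cre 3 and Ms4a1 at 0 in Alb-cre 2. The part of B cells in the Bhlhe41 values was not tested. In whole liver fewer cells of a type and less RNA per cell cannot be told apart.

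Its close relative Bhlhe40 (ENSMUSG00000030103.12), or DEC1, had 151, 181, 138, 146 and 86.4 CPM in Alb-cre livers 1 to 5, against 129, 241, 120 and 168 CPM in control livers 1 to 4. The groups overlapped, Alb-cre 5 being lowest and control 2 highest. The log2 fold change was -0.23 ± 0.23 (adjusted p = 0.515, edgeR, 95% interval -0.73 to 0.28). It was 0.016 without control 2, and over all alternatives the adjusted p (edgeR, DESeq2 or limma) ran from 0.328 to 0.97, so no direction is given. The log2 ratio of Bhlhe40 to Bhlhe41, per kilobase of transcript, was 5.64 to 7.29 in Alb-cre livers and 4.47 to 5.29 in control livers, ranges that did not overlap. This ratio was not tested.

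Ciart (ENSMUSG00000038550.11), or CHRONO, which represses CLOCK and BMAL1, had 34.1, 21.2, 20.2, 26.7 and 6.44 CPM in Alb-cre livers 1 to 5, against 34.6, 29.6, 21.5 and 35.4 CPM in control livers 1 to 4. Alb-cre 5 alone stood far down, with 97 counts, Alb-cre 1 and 4 were within the range of the controls, and Alb-cre 2 and 3 were just below it. Ciart's log2 fold change was -0.48 ± 0.34 (adjusted p = 0.336, edgeR, 95% interval -1.21 to 0.26). Ciart had the widest spread among Alb-cre livers after Nfil3, with an SD on the log2 scale larger than that of 98.1% of the 11600 genes.

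Rora (ENSMUSG00000032238.18) had 33.6, 30.9, 33.9, 33.6 and 34.9 CPM in Alb-cre livers 1 to 5, against 42.5, 51.0, 53.1 and 37.1 CPM in control livers 1 to 4. The groups did not overlap, and the Alb-cre livers were nearly level. Their SD on the log2 scale was larger than that of 2.37% of the 11600 genes, against 51.9% for the control livers. Its log2 fold change was -0.46 ± 0.12 (adjusted p = 0.0237, edgeR, 95% interval -0.72 to -0.20). This call was less firm than those of Dbp and Bhlhe41. It was lost without control 2 (-0.40, adjusted p = 0.0765, edgeR), control 3 (-0.38, adjusted p = 0.0535) or Alb-cre 1 (-0.46, adjusted p = 0.0532), and its adjusted p over all alternatives ran from 0.00498 to 0.296.

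Usp2 (ENSMUSG00000032010.16), a ubiquitin-specific protease gene with a strong daily rhythm in mouse liver, had 89.4, 64.2, 81.0, 73.9 and 43.8 CPM in Alb-cre livers 1 to 5, against 83.3, 115, 56.4 and 71.5 CPM in control livers 1 to 4. The groups overlapped, and the lowest and highest livers were Alb-cre 5 and control 2, as for Bhlhe40. For Usp2 the log2 fold change was -0.21 ± 0.22 (adjusted p = 0.538, edgeR, 95% interval -0.69 to 0.28). It was 0.0026 without control 2, so no direction is given. Alb-cre 5 was the lowest of all 9 livers for 5 genes (Dbp, Tef, Ciart, Bhlhe40 and Usp2) and the highest for Nfil3. For Tef it was all but level with Alb-cre 2 (167.3 and 167.4 CPM), and for Nfil3 close to it (44.8 and 42.5 CPM).

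Levels could be set side by side after division by the length of the longest coding transcript in GENCODE M21. Which transcripts these livers used was not determined, so the order of the genes, and the size of each ratio per kilobase, depend on this choice. Dbp was the most abundant of the 9 in control livers and the third in Alb-cre livers. In Alb-cre livers the order was Bhlhe40 at 45.1 ± 11.1, Tef at 43.9 ± 5.64, Dbp at 32.0 ± 12.0, Usp2 at 18.2 ± 4.54, Nfil3 at 12.2 ± 8.69, Hlf at 11.3 ± 2.04, Ciart at 11.2 ± 5.24, Rora at 3.07 ± 0.137 and Bhlhe41 at 0.572 ± 0.257 CPM per kilobase (SD, n = 5). Neighbours from Bhlhe40 down to Ciart differed by less than the sum of their SDs, whereas Ciart and Rora, and Rora and Bhlhe41, differed by more. In control livers it was Dbp at 127 ± 33.3, Tef at 56.8 ± 3.91, Bhlhe40 at 52.8 ± 17.6, Usp2 at 21.1 ± 6.38, Ciart at 15.6 ± 3.30, Hlf at 10.6 ± 2.36, Nfil3 at 7.23 ± 0.912, Rora at 4.22 ± 0.685 and Bhlhe41 at 1.97 ± 0.340 CPM per kilobase (SD, n = 4). There Tef and Bhlhe40, Usp2 and Ciart, and Ciart and Hlf differed by less than the sum of their SDs, and the other neighbours by more.

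The core clock genes around them moved in both directions. Of 16 tested core clock genes 3 were higher and 3 lower (37.5% called, beside 18.3% of all tested genes), with a median log2 fold change of 0.05. Nr1d1, the repressor gene that is among the best known E-box outputs, fell to 41.0 ± 7.32 CPM in Alb-cre livers, against 152 ± 50.8 CPM in control livers (log2 fold change -1.89 ± 0.21, adjusted p = 9.51e-04, edgeR). Per3 fell to 31.2 ± 3.63 CPM in Alb-cre livers, against 60.7 ± 7.50 CPM in control livers (-0.96 ± 0.12, adjusted p = 0.00179, edgeR). Both calls stood in every fit that left out 1 liver. The third lower gene was Fbxl21, a ubiquitin ligase gene (-0.85 ± 0.24, adjusted p = 0.0291, edgeR). Higher were Clock (0.50 ± 0.13, adjusted p = 0.0219, edgeR), the repressor gene Cry1 (0.86 ± 0.24, adjusted p = 0.0285) and the ubiquitin ligase gene Fbxw11 (0.63 ± 0.20, adjusted p = 0.0452). Arntl had 4.03 ± 2.44 CPM in Alb-cre livers and 1.77 ± 0.820 CPM in control livers (SD, n = 5 and 4; 1.18 ± 0.46, adjusted p = 0.0897, edgeR), with 4.73 and 7.91 CPM in Alb-cre 2 and 5, the livers high in Nfil3. DESeq2 called it (adjusted p = 0.0397), and over all livers its groups overlapped. Per1 (0.34 ± 0.46, adjusted p = 0.634), Per2 (0.19 ± 0.18, adjusted p = 0.486), Cry2 (-0.18 ± 0.13, adjusted p = 0.35) and Nr1d2 (-0.45 ± 0.15, adjusted p = 0.0553, edgeR) did not pass. The log2 ratio of Nr1d1 to Rora, the opposing factors at ROR elements, was 2.08 to 2.57 in Alb-cre livers and 3.19 to 4.59 in control livers, per kilobase of transcript.

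The calls of the other 4 core clock genes hung on single livers. The Clock call was lost without control 2 or 4 (adjusted p = 0.0636 to 0.0697, edgeR) and that of Cry1 without control 1, 3 or 4 or Alb-cre 5 (0.0533 to 0.0868). Fbxl21 was lost without control 1, 2 or 4 or Alb-cre 1 or 5 (0.0569 to 0.0742), and Fbxw11 without control 2 or 4 or Alb-cre 1, 3, 4 or 5 (0.0602 to 0.126). The number of higher core clock genes was 0 without control 4, 1 without control 2 and 1 without Alb-cre 5. The number of lower ones was 5 by DESeq2, with a stricter filter, with upper-quartile scaling and with the length correction, and Nr1d2 was called in each of these.

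**Figure D5:**
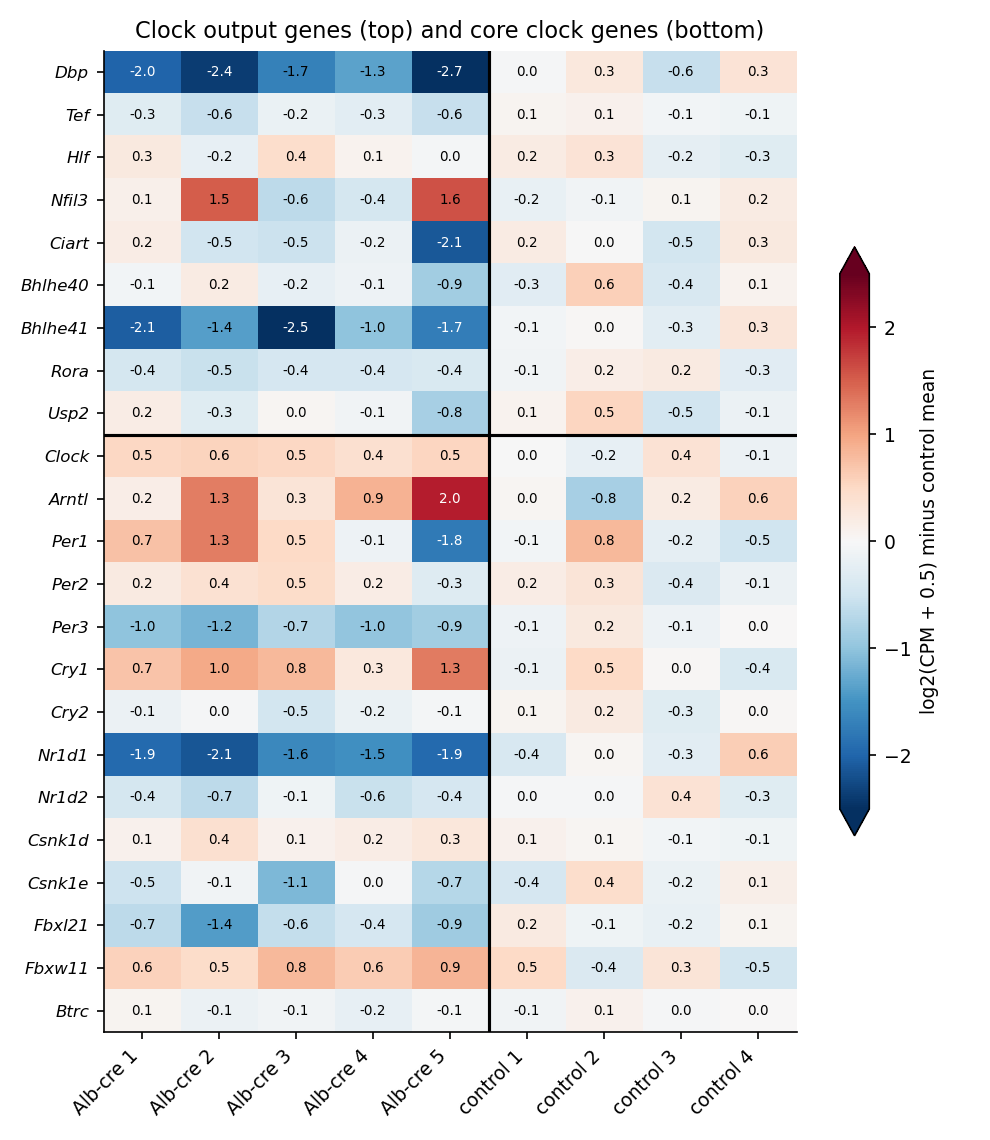
Log2(CPM + 0.5) minus the mean of the 4 control livers, for the 9 clock output genes (above the line) and core clock genes (below), Alb-cre livers left. Dbp, Bhlhe41, Nr1d1 and Per3 are lower in all 5 Alb-cre livers, and Nfil3 and Arntl are highest in Alb-cre 2 and 5.

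Genes that depend on PAR-bZIP factors in mouse liver, by earlier studies, also went both ways. Of 18 tested, 2 were higher and 3 lower (27.8% called, beside 18.3% of all tested genes), with a median log2 fold change of -0.05. Lpl, the lipoprotein lipase gene, fell to 19.7 ± 4.96 CPM in Alb-cre livers, against 63.4 ± 23.7 CPM in control livers (log2 fold change -1.68 ± 0.26, adjusted p = 0.00386, edgeR), and this call stood in every fit that left out 1 liver. Cyp2a5, a coumarin hydroxylase gene, fell to 369 ± 163 CPM in Alb-cre livers, against 894 ± 203 CPM in control livers (-1.28 ± 0.32, adjusted p = 0.0211). Its near-identical neighbour Cyp2a4 was also lower, at 0.99 ± 0.56 CPM in Alb-cre livers and 2.84 ± 0.44 CPM in control livers (-1.51 ± 0.36, adjusted p = 0.0174). These levels were low, and reads shared by the pair could have been split by the counting. Cyp7a1, the rate-limiting enzyme of bile acid synthesis, rose to 176 ± 103 CPM in Alb-cre livers, against 49.2 ± 26.9 CPM in control livers (1.84 ± 0.43, adjusted p = 0.0158). Ppara, a receptor gene of fatty acid oxidation, was higher too (0.78 ± 0.24, adjusted p = 0.0398). The Cyp2a5 call was lost without control 2 or Alb-cre 1 (adjusted p = 0.0509 to 0.0615) and that of Cyp2a4 without control 4 (0.0563). The Cyp7a1 call was lost without control 2 or 4 (0.0529 to 0.0579) and that of Ppara without control 2 or 4 or Alb-cre 1, 3, 4 or 5 (0.0517 to 0.118). Higher genes numbered 0 without control 4 and 1 without control 2 or Alb-cre 1, 3, 4 or 5, and lower genes numbered 5 without Alb-cre 3.

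Other genes with known daily rhythms in liver were called about as often as genes at large. Of 21 tested, 3 were higher and 1 lower (19.0% called), with a median log2 fold change of 0.05. Slc45a3, a solute carrier gene, rose to 54.5 ± 14.6 CPM in Alb-cre livers, against 18.7 ± 2.26 CPM in control livers (log2 fold change 1.54 ± 0.18, adjusted p = 0.00124, edgeR). Tsku, a secreted liver protein gene, rose to 360 ± 140 CPM in Alb-cre livers, against 132 ± 43.2 CPM in control livers (1.45 ± 0.30, adjusted p = 0.00921). Cdkn1a, a cell cycle inhibitor gene, was higher (1.25 ± 0.37, adjusted p = 0.0348) and Cys1, the cystin gene, lower (-1.23 ± 0.34, adjusted p = 0.0276). The Cdkn1a call was lost without any 1 control or without Alb-cre 1 or 2 (adjusted p = 0.0575 to 0.0972), and that of Cys1 without control 2 or 4 or Alb-cre 1 (0.0602 to 0.0881). Lower genes numbered 0 without control 2, control 4 or Alb-cre 1, 2 without Alb-cre 2 and 4 without Alb-cre 3.

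Genes that carry body-wide time cues, such as temperature and glucocorticoids, gave 3 higher and 1 lower of 17 tested. The share called was 23.5%, beside 18.3% of all tested genes, and the median log2 fold change was 0.23. Fkbp5, a glucocorticoid-induced cochaperone gene, had 121, 108, 47.2, 102 and 57.9 CPM in Alb-cre livers 1 to 5, against 31.5, 27.95, 30.04 and 24.2 CPM in control livers 1 to 4 (log2 fold change 1.62 ± 0.26, adjusted p = 0.00438, edgeR). Every Alb-cre liver was above every control. Cirbp, the cold-inducible RNA-binding protein gene, had 20.8, 14.6, 17.5, 13.4 and 17.4 CPM in Alb-cre livers 1 to 5, against 41.7, 27.4, 30.1 and 60.4 CPM in control livers 1 to 4 (-1.26 ± 0.22, adjusted p = 0.00559). The heat shock genes Hsph1 (1.08 ± 0.27, adjusted p = 0.0203) and Hsp90aa1 (1.00 ± 0.24, adjusted p = 0.0158) were higher. All other genes of this list, further glucocorticoid-induced and heat shock genes among them, were not called. Without control 4 Hsp90aa1 did not pass (adjusted p = 0.0541, edgeR). Higher genes numbered 5 without Alb-cre 5, and lower genes 2 without Alb-cre 2. Whether these genes moved with the clock outputs for a shared reason was not tested.

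Among relatives of the 9 genes, 1 of 12 tested transcription factors of the C/EBP, ATF, HES, HEY and ROR families was higher and 1 lower (16.7% called, median log2 fold change -0.13). Cebpd was the higher one (1.205 ± 0.38, adjusted p = 0.0454, edgeR) and Cebpe the lower (-1.04 ± 0.23, adjusted p = 0.0129). Of 25 ubiquitin-specific proteases other than Usp2, 3 were higher and 0 lower (12.0% called, median log2 fold change 0.18), namely Usp36 (0.52 ± 0.13, adjusted p = 0.022), Usp38 (0.38 ± 0.12, adjusted p = 0.0461) and Usp33 (0.80 ± 0.26, adjusted p = 0.0483). Both shares were below the 18.3% of all tested genes. The Cebpd call was lost without control 1, 3 or 4 or Alb-cre 1 or 2 (adjusted p = 0.0641 to 0.133), and without control 1 lower relatives numbered 2. Usp36 was lost without control 2 or Alb-cre 1, Usp33 without any liver but control 3 and Alb-cre 2, and Usp38 without any liver but control 1, so that higher proteases numbered 0 without control 2 or Alb-cre 1 and 1 without control 4 or Alb-cre 3, 4 or 5. Lower proteases numbered 1 without Alb-cre 3.

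The 5 tested genes whose values over the 9 livers lay nearest to those of Dbp, each centred on its control mean, were Trib3, Gm3839, Nr1d1, Gstt2 and Spry4. Their root mean square differences from Dbp were 0.19, 0.24, 0.34, 0.37 and 0.41 on the log2 scale. Trib3, a pseudokinase gene, stood at -2.13, -2.08, -1.40, -1.41 and -2.52 in Alb-cre livers 1 to 5, beside -2.0, -2.38, -1.68, -1.34 and -2.71 for Dbp. Among the 5 nearest to Nfil3 were Gfod2, Ppp4r4, B4galt1 and Cp, at 0.32 to 0.36. Like Nfil3, each of these 4 was highest in Alb-cre 2 and 5, which follows from choosing them by closeness to Nfil3 in these same livers. None was called (adjusted p = 0.171 to 0.336, edgeR). Cp is also in the acute phase list.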

How the data were processed

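Libraries kept strand, had ribosomal RNA depleted and were read from both ends, per the labels' protocols. The submitters' processing notes name fastp 0.23.2, HISAT2 2.1.0 and build GRCm39. Not given in the sources used here: counting tool, strand setting, annotation and filters, so reads of overlapping or antisense genes may not have been told apart. The authors deposited whole-number counts per gene without normalization, for 18954 genes. Titles gave each liver's group and number.

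Genes passing filterByExpr (14004) got TMM factors (0.894 to 1.095) and a fit with group as the only term in edgeR 4.0.16 in R 4.3.3 (glmQLFit, glmQLFTest, tested on simulated data), adjusted by Benjamini-Hochberg. Alternatives used DESeq2 1.42.0, limma 3.58.1 (voom), other scalings and filters, replicate blocks, a length correction and each liver left out. Log2 values per liver used log2(CPM + 0.5). Figures were drawn with matplotlib 3.10.9. Depth limits genes with few counts most, such as Bhlhe41. Livers of 1 group always differed beyond sampling noise (lowest chi-square per gene 13.96). Same-numbered livers did not deviate together in every pair, so the numbers were not taken as pairs.

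The members and lists were chosen with earlier results of these data known. The genes named were the 9 members, core clock genes, for each list and direction the 3 called genes of lowest adjusted p, and the 5 genes nearest to Dbp and to Nfil3 (average log2 CPM of at least 1). Gsdmd, Cd79b and Ms4a1 were named outside this rule, after their values were seen. A few results that belong to the lists are not reported here.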

Additional observations from a re-analysis of the deposited data

Results flagged for a closer look

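In 82 groups (41 genes in 2 groups each), 4 held a liver far from the rest of its group by Dixon's ratio, which chance gives in about 1 in 20 groups. None of the 4 was among the 9 clock output genes. Cyp7a1 had 89.3 CPM in control 3, against 32.9 to 39.8 CPM in the other controls. Cebpd had 29.5 CPM in Alb-cre 2, against 8.57 to 13.2 CPM in the other Alb-cre livers, and 10.5 CPM in control 2, against 4.54 to 5.28 CPM in the other controls. Clock had 22.01 CPM in Alb-cre 4, against 23.8 to 24.5 CPM in the other Alb-cre livers.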

How the results depend on the processing

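Over 20 alternatives, 1 of them added after the data were seen, Dbp and Bhlhe41 kept their direction in all and their calls in 19. The exception was the added fit without controls 2 and 4, in which 29 genes were higher, 44 lower and 0 of the 9 genes were called (Dbp -1.67, Bhlhe41 -1.60, Rora -0.52, and Bhlhe40 at 0.17 and Usp2 at 0.014 turned upward). It keeps 2 controls. Nfil3 and Ciart kept their direction and were called in none, but their size varied. Nfil3 was at 0.41 without Alb-cre 5, 0.45 without Alb-cre 2 and 0.41 by limma-voom, against 0.75 in the main fit. Ciart was at -0.25 without Alb-cre 5, against -0.48 in the main fit. Tef was called with upper-quartile factors (-0.41), the stricter filter (-0.38), DESeq2 (-0.37) and the length correction (-0.49). Hlf turned to -0.034 with the length correction and to -0.0021 without control 4. Without control 2, Bhlhe40 was at 0.016 and Usp2 at 0.0026. The cause of these turns was not tested.

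With 1 liver left out, log2 fold changes ran from -2.20 to -1.85 for Dbp, -0.42 to -0.32 for Tef, 0.41 to 0.97 for Nfil3, -0.69 to -0.25 for Ciart, -0.0021 to 0.22 for Hlf, -0.35 to 0.016 for Bhlhe40, -0.35 to 0.0026 for Usp2, -2.04 to -1.60 for Bhlhe41 and -0.55 to -0.38 for Rora, and 567 to 1339 genes were higher and 625 to 1184 lower, against 1296 and 1270 with all livers (567 and 627 without control 2, 588 and 625 without control 4, 755 and 658 without Alb-cre 1, 805 and 801 without Alb-cre 5). The ranges of higher and lower genes were 0 to 3 and 2 to 4 in the core clock, 0 to 3 and 2 to 5 in the PAR-bZIP list, 2 to 4 and 0 to 4 in the rhythmic list, 2 to 5 and 1 to 2 in the time cue list, 0 to 1 and 1 to 2 in the related families, 0 to 4 and 0 to 1 in the proteases, and 11 to 23 and 0 to 0 in the acute phase list.

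Same-numbered livers correlated at -0.02 to 0.17 by title number and -0.17 to 0.07 by description number. Over so few pairs, this cannot show whether they share more than a number. With a replicate block on the title number, 819 genes were lower, Rora was at -0.46 (adjusted p = 0.0539, edgeR), Nfil3 at 0.15 and Ciart at -0.25, Per1 (0.60, adjusted p = 0.0235) and Nr1d2 (-0.45, adjusted p = 0.0398) were called, rhythmic genes had 0 lower and acute phase genes 11 higher. With a replicate block on the description number, 281 genes were higher and 248 lower, Rora was at -0.36, and 0 core clock genes, 1 PAR-bZIP list gene and 0 proteases were higher and 0 related factors lower. By DESeq2, 5 core clock genes, 3 rhythmic genes, 2 related factors and 1 protease were lower. With upper-quartile factors, 5 core clock genes, 2 rhythmic genes, 2 time cue genes and 1 protease were lower and 1 protease higher. With the stricter filter, 5 core clock and 2 rhythmic genes were lower. With the length correction, 5 core clock genes and 2 proteases were lower, and 1 PAR-bZIP list gene, 0 related factors and 0 proteases were higher. With library totals alone, 1 PAR-bZIP list gene and 1 protease were higher. By limma-voom, 4 rhythmic genes were lower and 0 related factors higher.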
